A study of Mus musculus with 24 samples.

Results

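The replication-dependent histone cluster genes encode the core histones H2A, H2B, H3 and H4, and 55 of the 33272 genes in the deposited table belonged to the set. Members were the genes whose symbol began with H2ac, H2bc, H3c or H4c and a digit, or with Hist1h to Hist4h, and whose transcript types included protein_coding. Of 59 matching names, 4 were left out: Hist1h2br, listed only as a nonsense-mediated decay transcript, and the pseudogenes H2ac14, H2ac5-ps and Hist1h2al. H2bc6 and Hist1h2bq list a second transcript type beside protein_coding and were kept. The set held 15 H2A, 16 H2B, 12 H3 and 12 H4 genes, 46 of them on chromosome 13 and 9 on chromosome 3. The choice used names and annotation, not measured values.

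The mice were C57BL/6, and RNA of their liver and kidney was sequenced in 4 arms, giving 3 libraries for each tissue and arm and 24 libraries in all. Control mice were untreated, and their labels give no dose or time. The CBLB502 arm received 0.2 mg/kg of CBLB502, a drug derived from flagellin that activates the receptor TLR5, into the peritoneum. The cisplatin arm received 20 mg/kg of cisplatin, a platinum drug that crosslinks DNA, by the same route. The combination arm received CBLB502 30 min before cisplatin, at the same doses. Tissue of the treated arms was taken at 72 h. Whether the 3 libraries of a group stand for 3 animals is not stated in the labels, and the p-values therefore rest on variation among libraries that could be technical.

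Replication-dependent histone genes are transcribed mainly in S phase, when new DNA is packaged into nucleosomes. Most of their mRNAs end without a poly(A) tail, in a short stem-loop that binds the protein SLBP. The U7 snRNP directs the cut just after this stem-loop, which stays as the 3′ end of the mRNA. Liver and kidney of adult mice hold few dividing cells, and some cluster genes are also made as polyadenylated RNA in resting cells. In bulk tissue, fewer cells of a type and less RNA per cell cannot be told apart.

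The stem-loop is shown for the members that carried results because it is the element these mRNAs share. It was searched on the transcript strand as GGCNCTTTTNAGNGCC in GENCODE vM21 transcripts. It was found in 34 of the 55 members, and in 45 of 21901 protein-coding genes (0.205%). Capitals mark the 16 matching bases, with 5 bases on either side. The transcripts are written in the DNA alphabet, 5′ to 3′.
H4c8: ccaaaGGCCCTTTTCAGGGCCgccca
H4c3: caaaaGGCCCTTTTCAGGGCCaccca
H4c9: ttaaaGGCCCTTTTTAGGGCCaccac
H2bc8: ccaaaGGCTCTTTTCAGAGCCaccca
H2ac18: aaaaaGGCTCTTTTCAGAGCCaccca
H3c14: acaaaGGCTCTTTTCAGAGCCaccac
All 8 H4 members with a match carried the GGCCC form of the stem, and all 26 H2A, H2B and H3 members with a match carried the GGCTC form. The other 21 members, H4c1, H4c2, H2bc4 and H2bc21 among them, had no match in their annotated transcripts. Some of these transcripts are short, such as H4c12 at 312 bases and H2bc13 at 381, and may end before the stem-loop. A missing match therefore does not show that a gene lacks it.

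Promoters of 43 members were found in RefSeq (build GRCm38.p6), and 250 bases before the start were searched on both strands. CCAAT, the core of the NF-Y binding motif, occurred in 81.4% of member promoters against 33.8% of all promoters of that length. TATAAA occurred in 44.2% against 12.4%, and ATTTGCAT, the octamer motif, in 25.6% against 1.6%. GGTCC occurred in 39.5% against 39.8%, but in 8 of 9 H4 promoters and 9 of 34 others. CCAAT was found in 3 of 9 H4 promoters and 32 of the 34 others. Some member promoters overlap each other, such as those of H2ac8 and H2bc8, so the same bases were counted for both genes. The motif set was chosen after values had been seen, each motif was counted on its own whether or not it overlapped another, and a match is a description of letters only. The 150 bases before the start are shown for the H4 genes that carried the kidney and the liver results and for the H2B gene H2bc8, with the matches in capitals (GGACC is GGTCC on the opposite strand).
H4c8, chr13:23530894-23531043, plus strand: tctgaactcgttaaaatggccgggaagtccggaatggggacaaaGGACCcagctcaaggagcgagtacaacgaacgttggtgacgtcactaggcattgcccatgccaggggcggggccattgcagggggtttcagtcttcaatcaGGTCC
H4c3, chr13:23698459-23698608, minus strand: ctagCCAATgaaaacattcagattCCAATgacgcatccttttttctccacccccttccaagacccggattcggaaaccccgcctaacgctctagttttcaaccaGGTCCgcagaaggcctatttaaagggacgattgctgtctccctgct
H2bc8, chr13:23571250-23571399, plus strand: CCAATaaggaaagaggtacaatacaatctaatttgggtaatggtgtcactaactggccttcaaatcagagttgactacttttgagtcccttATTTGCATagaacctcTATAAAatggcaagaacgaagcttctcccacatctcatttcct

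The library totals were 40578350 to 77535597 counts. Mitochondrial genes took 60.7 to 72.2% of the counts in the control libraries and 2.57 to 14.2% in the treated ones. Mitochondrial pseudogenes took a further 19.8 to 21.9% and 0.871 to 4.43%, which left 2818907 to 10137352 other counts in a control library and 44001552 to 74501247 in a treated one. The members rested on 499 to 3685 counts in a control library and 2879 to 18937 in a treated one. The marker levels are CPM, counts relative to library totals scaled by the trimmed mean of M-values over all 24 libraries. Hepatocyte markers (Alb, Apoa1, Ttr, Cyp2e1, Serpina1c) summed to 18880 to 115300 CPM in liver and 151 to 1244 in kidney. Kidney tubule and podocyte markers summed to 906 to 4539 CPM in kidney and 5.6 to 25.0 in liver. The lymphocyte markers summed to 129 to 164 CPM in liver controls, 13.3 to 21.1 after CBLB502, 0.389 to 2.3 after cisplatin and 0.441 to 1.25 after the combination; in kidney the ranges were 10.9 to 33.1, 7.1 to 8.91, 0.0977 to 2.09 and 0.817 to 1.11. Liver cisplatin library 3 stood apart: its 9 listed RNAs without a poly(A) tail, such as the signal recognition particle RNA genes Rn7s1 and Rn7s2, summed to 904 CPM against 17.6 and 10.7 in libraries 1 and 2. Its macrophage markers summed to 94.4 CPM against 24.6 and 23.2, and its neutrophil markers to 2.17 against 31.2 and 40.6. In kidney, cisplatin library 6 had 3183 CPM of tubule and podocyte markers against 1065 and 966 in the other cisplatin libraries.

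Histone RNA in both tissues was dominated by the H2B gene H2bc4. After scaling, the summed levels of the arms overlapped within each tissue, but this depended on the scaling. Levels are CPM on library totals scaled by the trimmed mean of M-values over all 24 libraries. The 55 members summed to 79.0 ± 8.12 CPM (SD, n = 3 here and below) in liver controls, 86.9 ± 12.2 after CBLB502, 73.2 ± 38.7 after cisplatin and 97.4 ± 17.2 after the combination. Liver cisplatin libraries 1 and 2 held 57.6 and 44.8 CPM and library 3 held 117. On unscaled totals, the members summed to 12.1 to 17.9 CPM in liver controls, below all treated liver libraries (38.25 to 133.1). Relative to the counts outside mitochondrial genes and their pseudogenes, liver controls held 164.1 to 179.8 CPM, above all treated liver libraries (39.8 to 142.1). In kidney the scaled sums were 91.8 ± 12.1, 90.4 ± 16.2, 88.4 ± 8.61 and 110 ± 25.9 CPM in the same order of arms, and all 4 ranges overlapped. This too depended on the scaling. On unscaled totals, kidney controls held 25.64 to 69.72 CPM, below all treated kidney libraries (144.3 to 268.7). Relative to the counts outside mitochondrial genes and their pseudogenes, kidney controls held 280.1 to 363.5 CPM. All kidney cisplatin libraries then lay lower, at 229.2 or less, while the CBLB502 and combination ranges each overlapped the controls. H2bc4 alone made up 46.0 to 80.5% of the sum of a library. Without it, the sums were 28.6 ± 7.28, 18.3 ± 3.53, 26.4 ± 6.19 and 26.0 ± 8.02 CPM in liver, and 25.6 ± 3.37, 21.7 ± 3.63, 28.7 ± 2.21 and 35.9 ± 14.4 CPM in kidney.

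**Figure D1:**
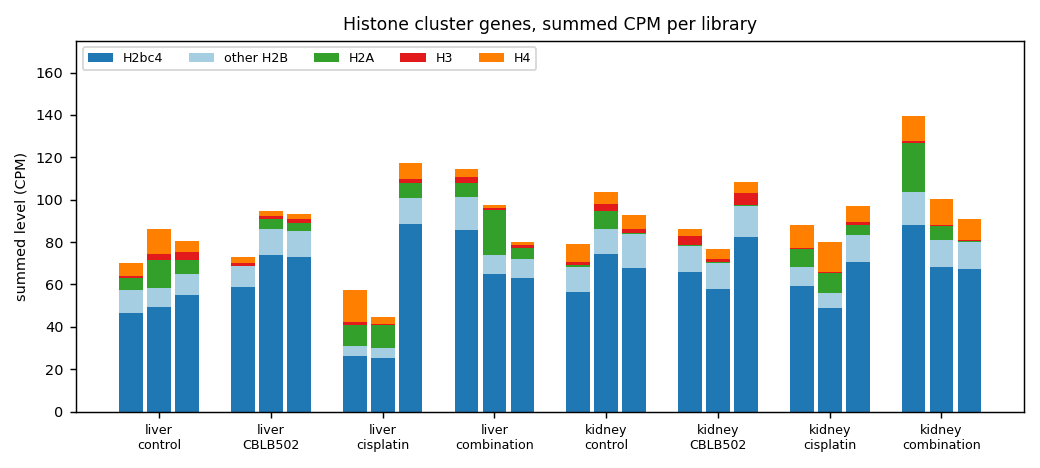
Bars give the summed level of the 55 members in CPM (y axis, linear from 0) for each of the 24 libraries, grouped by tissue and arm (x axis), and colours split each bar into H2bc4, the other H2B genes, H2A, H3 and H4. H2bc4 is the largest block in each library, 46.0 to 80.5% of the bar, and liver cisplatin library 3 stands above libraries 1 and 2.

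Most members were rare. Of the 55, 17 had fewer than 10 counts in every library, 9 of these being H2A genes, and 7 had a count in all 24 libraries: H2bc4, H2bc8, H2bc9, H2bc21, H3c14, H4c8 and H4c9. The filter on low counts kept 22 members in liver (3 H2A, 8 H2B, 3 H3, 8 H4) and 27 in kidney (2, 12, 4 and 9), and a fit of both tissues kept 33. Per length, given as CPM per kilobase of the longest annotated transcript and averaged over the 9 treated libraries, 50 members lay under 1 in liver and 48 in kidney. The highest in kidney were H2bc4 at 58.5 CPM per kilobase (42.4 to 76.0 over libraries), H2bc8 at 10.5 (6.67 to 13.7), H4c8 at 10.4 (2.13 to 21.6), H2ac18 at 9.23 (0 to 38.1) and H4c9 at 2.52 (1.07 to 4.76). The lowest H2bc4 value in kidney lay above the highest value of the other 4, whose neighbours in this order overlapped. In liver the order was H2bc4 at 53.8 CPM per kilobase (21.96 to 76.5), H2ac18 at 12.1 (0 to 35.4), H2bc8 at 9.86 (3.9 to 14.3), H4c8 at 2.74 (0.548 to 9.33) and Hist1h4n at 1.14 (0.154 to 7.54), and each of these ranges overlapped the next.

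Over 19 comparisons of arms, tissues and their interactions, 11 distinct members were called, and 7 of the 11 were H4 genes, as were 11 of the 33 members tested in the fit of both tissues. In each of the 19 comparisons the share of tested members called lay below the share of all tested genes called. A gene was called when its adjusted p lay under 0.05 in edgeR's quasi-likelihood test over all genes that passed the filter. Where members called by DESeq2 are counted, the share of all genes beside them is edgeR's. The share called by DESeq2 is not given here. In kidney, 5 of 27 tested members were called between cisplatin and CBLB502, 4 higher with cisplatin and 1 lower, where 28.7% of all tested genes were called (18.5% higher, 10.2% lower). The combination against CBLB502 likewise gave 4 higher and 1 lower, where 23.8% of all genes were called (14.9% higher, 8.98% lower). CBLB502 against control called 2 members, both lower, beside 19.2% of all genes (11.4% higher, 7.77% lower). Cisplatin against control called 1 higher and 1 lower, beside 39.3% of all genes (24.1% and 15.2%). The combination against control called 1 higher and 1 lower, beside 36.5% of all genes (21.5% and 15.0%). The called share of the tested members was 7.41% or 18.5% in these comparisons. The combination differed from cisplatin in 0 members by edgeR, beside 0.00492% of all genes (0.00492% higher, 0.0% lower), with 1 member at an unadjusted p under 0.05 and 0 called by DESeq2. The interaction, which asks whether the change with cisplatin differed after CBLB502, called 0 members in kidney by edgeR, beside 8.01% of all genes (2.6% higher, 5.41% lower), with 5 at an unadjusted p under 0.05 and 1 called by DESeq2.

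The kidney calls other than H2ac18 and H3c14 were on 3 H4 genes. H4c8 (chr13:23531050-23531519, plus strand, in GENCODE vM21 on GRCm38) is the H4 gene with the highest level per length in both tissues. Its level was 3.92, 1.77 and 2.57 CPM in the 3 kidney control libraries, 1.27, 1.33 and 1.0 after CBLB502, 6.48, 10.2 and 3.81 after cisplatin and 5.79, 7.47 and 6.6 after the combination. The 3 CBLB502 libraries were the lowest of the 12, and the libraries of both cisplatin-treated arms did not overlap them. H4c8 was 5.69-fold higher after cisplatin than after CBLB502 (log2 difference 2.61 ± 0.389 SE, adjusted p = 0.0009) and 5.52-fold higher after the combination (2.57 ± 0.388, adjusted p = 0.000903). Against control it rose by 1.27 with cisplatin (adjusted p = 0.0195), where 1 cisplatin library lay just below the highest control, and by 1.23 with the combination (adjusted p = 0.0245). With CBLB502 it fell by 1.34 (adjusted p = 0.0307). The 3 calls against control were each lost when some single libraries were left out, and the combination's also under another scaling, with adjusted p up to 0.126, whereas the calls against CBLB502 held under all 18 alternatives.

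H4c1 (chr13:23760692-23761230, minus strand) was at 0.112, 0.309 and 0.0714 CPM in kidney controls, 0.00745, 0.0321 and 0.0315 after CBLB502, 0.639, 0.854 and 0.287 after cisplatin and 0.45, 0.17 and 0.335 after the combination. The CBLB502 libraries held 1, 4 and 4 counts and the cisplatin libraries 85, 108 and 45, so the fold rests on few reads on the low side. It was 25.1-fold higher after cisplatin than after CBLB502 (log2 4.69 ± 0.855, adjusted p = 0.00233) and 13.4-fold higher after the combination (3.79 ± 0.83, adjusted p = 0.00687). H4c1 also fell with CBLB502 against control (-2.93 ± 0.855, adjusted p = 0.0334), a call lost under 6 of 16 alternatives.

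H4c2 (chr13:23757013-23757409, plus strand) was at 0.56, 0.168 and 0.25 CPM in kidney controls and 0.067, 0.257 and 0.181 after CBLB502. Cisplatin libraries held 0.826, 1.08 and 0.626 CPM and combination libraries 0.752, 0.83 and 0.797. Both cisplatin-treated groups lay above all CBLB502 libraries, by 5.0-fold (log2 2.42 ± 0.591, adjusted p = 0.011) and 4.71-fold (2.33 ± 0.589, adjusted p = 0.0142). The second call was lost without CBLB502 library 4 (adjusted p = 0.0612). H4c2 overlaps the antisense gene 4930558J22Rik, which held 0 to 4 counts in a library.

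Other H4 genes in kidney did not pass. H4c3 was at 0.343, 0.618 and 0.536 CPM after CBLB502 and 0.999, 0.752 and 0.657 after cisplatin (log2 0.78 ± 0.576, adjusted p = 0.334), groups that did not overlap. H4c9 was at 1.19, 1.69 and 2.73 CPM after CBLB502 and 1.07, 0.775 and 2.0 after cisplatin (-0.46 ± 0.434, adjusted p = 0.45). The 12 H4 members summed to 3.23 to 4.78 CPM after CBLB502, 8.0 to 14.2 after cisplatin, 9.86 to 12.1 after the combination and 5.59 to 8.4 in controls. H4 genes are near copies of each other: 45.8%, 40.4% and 54.6% of the 50-base windows of H4c8, H4c1 and H4c2 also occur in other annotated genes, so the split of reads among them is uncertain.

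**Figure D2:**
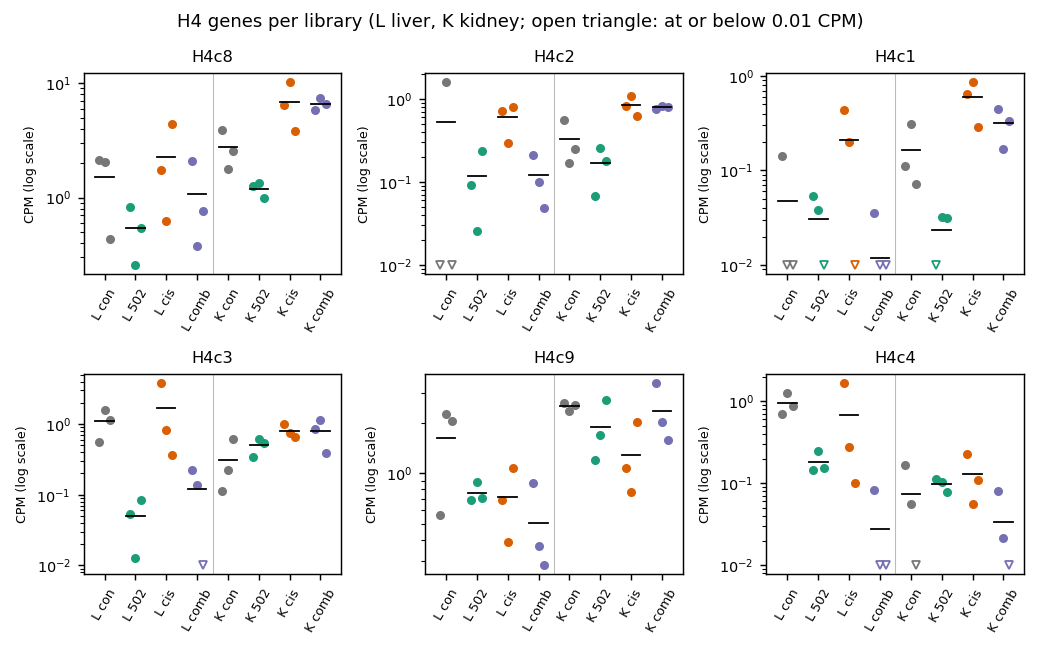
Points give the level of 6 H4 genes in CPM (y axis, log scale) in each library, with liver arms left of the line and kidney arms right of it, bars at group means, and open triangles for libraries at or below 0.01 CPM. In kidney, the CBLB502 means of H4c8, H4c2 and H4c1 are the lowest of the 4 arms, and those points do not overlap the cisplatin-treated groups.

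Other RNAs without a poly(A) tail are given beside these values. The list of 9 (Rn7s1, Rn7s2, Rn7sk, Rpph1, Rmrp, Terc, Snord118, Vaultrc5, Scarna2) summed to 0.611 to 4.5 CPM after CBLB502, 4.44 to 16.1 after cisplatin and 6.72 to 10.3 after the combination, against 52.3 to 151 in controls. Of 6 tested, 2 rose after cisplatin against CBLB502, Rn7sk (log2 3.71 ± 0.714, adjusted p = 0.00321) and Scarna2 (2.78 ± 0.923, adjusted p = 0.042), and 0 fell, beside 28.7% of all genes called. Rn7sk, Scarna2 and Rpph1 rose after the combination against CBLB502, beside 23.8% of all genes. Erythroid markers summed to 124 to 547 CPM after CBLB502, 0.747 to 3.15 after cisplatin and 1.48 to 4.69 after the combination, and endothelial and stromal markers to 67.3 to 99.96, 8.84 to 42.5 and 21.5 to 26.9 CPM. The part of any of these in the H4 differences was not tested.

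In liver, the 22 tested members gave few calls. CBLB502 against control called 1, lower, beside 27.8% of all genes (18.3% higher, 9.48% lower). Cisplatin against control called 3, all lower, beside 43.1% (25.6% higher, 17.5% lower), and the combination against control 1, lower, beside 40.2% (23.8% higher, 16.4% lower). Cisplatin against CBLB502 called 1, higher, beside 12.5% (7.7% higher, 4.84% lower), and the interaction 1, higher, beside 21.7% (7.14% higher, 14.5% lower). The combination differed from cisplatin in 0 members by edgeR, beside 3.57% of all genes (0.993% higher, 2.58% lower), with 4 at an unadjusted p under 0.05 and 5 called by DESeq2. It differed from CBLB502 in 0 members by edgeR, beside 6.74% of all genes (2.88% higher, 3.86% lower), with 0 at an unadjusted p under 0.05 and 0 called by DESeq2.

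H4c3 (chr13:23697635-23698454, minus strand) carried 2 of the liver calls. It was at 0.564, 1.59 and 1.16 CPM in controls, 0.0531, 0.0129 and 0.0833 after CBLB502, 3.87, 0.825 and 0.367 after cisplatin and 0.223, 0.139 and 0 after the combination. The CBLB502 libraries, with 4, 1 and 6 counts, lay below all control and cisplatin libraries. H4c3 fell with CBLB502 against control (-4.39 ± 1.37, adjusted p = 0.0323) and was higher after cisplatin than after CBLB502 (5.01 ± 1.38, adjusted p = 0.0358). Leaving out single libraries took the adjusted p of these calls to 0.12 and 0.161.

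H4c4 (chr13:23581598-23582735, plus strand) was at 0.705, 1.25 and 0.871 CPM in liver controls and 0.0822, 0 and 0 after the combination, and fell by 4.93 ± 1.51 (adjusted p = 0.0226), a call lost without combination library 2 or 3. The control libraries held 5, 11 and 6 counts of it. The same RNAs without a poly(A) tail were also low in these liver arms, at 1.69 to 2.83 CPM after CBLB502 and 1.83 to 3.33 after the combination against 25.9 to 49.1 in controls; their part in the H4 calls was not tested.

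H2B genes were the most abundant members, and H2bc21 was the only H2B gene called with all libraries. H2bc4 (chr13:23684199-23692908, plus strand) is annotated with 2 exons, the second starting at 23692176, and has no stem-loop match. In liver it was at 46.5, 49.4 and 55.3 CPM in controls, 58.6, 74.1 and 73.2 after CBLB502, 26.5, 25.4 and 88.5 after cisplatin and 85.8, 65.0 and 63.2 after the combination. Cisplatin libraries 1 and 2 were the lowest of the 12 and library 3 the highest, and no comparison called H2bc4 with all libraries. Without cisplatin library 3, H2bc4 was called lower after cisplatin than in controls and than after CBLB502, and higher after the combination than after cisplatin. Against control it was then also called higher after CBLB502 and after the combination, beside 34.8% and 46.8% of all genes called. In kidney H2bc4 lay at 49.0 to 87.9 CPM over the 12 libraries and all arms overlapped (cisplatin against CBLB502 -0.11 ± 0.189, adjusted p = 0.682).

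H2bc8, which has the stem-loop, followed H2bc4 in liver: 4.93, 1.81 and 4.06 CPM in controls, 6.37, 8.14 and 7.19 after CBLB502, 2.82, 2.41 and 8.83 after cisplatin and 8.43, 5.45 and 5.19 after the combination. In kidney its 12 libraries spanned 4.12 to 8.48 CPM. It was called in no comparison with all libraries. Without liver cisplatin library 3, it was called in liver in the same direction as H2bc4 between cisplatin and each of the CBLB502 and combination arms. H2bc8 was then also called higher in liver after CBLB502 than in controls. Of the 50-base windows of H2bc8, 45.0% also occur in H2bc4, so the split of reads between them is uncertain. The part of shared reads in the likeness of H2bc8 to H2bc4 was not tested.

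H2bc21 (chr3:96221119-96223738, plus strand), a chromosome 3 gene with no stem-loop match, was at 3.52, 2.94 and 3.63 CPM in liver controls, 1.45, 1.73 and 2.37 after CBLB502, 0.385, 1.07 and 1.2 after cisplatin and 3.8, 1.89 and 1.75 after the combination. All cisplatin libraries lay below all others in liver. It fell with cisplatin against control by 1.92 ± 0.514 (adjusted p = 0.0106), 3.79-fold lower, and this call held under all 17 alternatives. The interaction was positive (2.38 ± 0.706, adjusted p = 0.0321), being the difference between the combination against CBLB502, 0.46, and cisplatin against control, -1.92. That call was lost under 10 of 17 alternatives, with adjusted p up to 0.103. In kidney H2bc21 was at 1.34, 1.27 and 3.27 CPM after cisplatin and 3.84, 3.77 and 3.6 after the combination, and the difference did not pass (0.95 ± 0.377, adjusted p = 0.326).

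**Figure D3:**
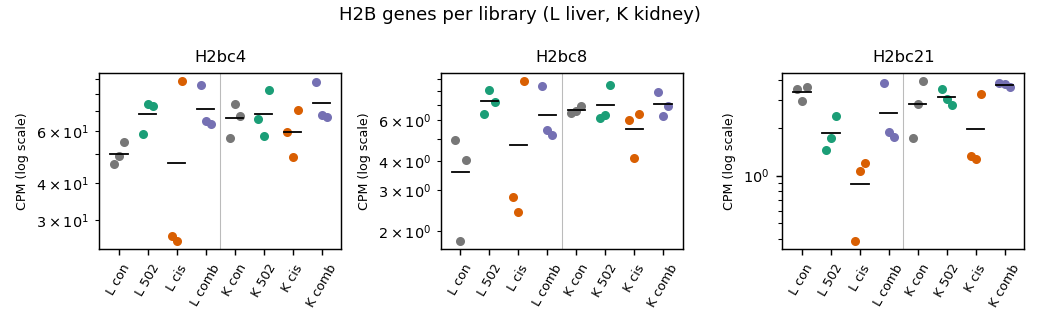
Points give the level of H2bc4, H2bc8 and H2bc21 in CPM (y axis, log scale) in each library, with liver arms left of the line and kidney arms right of it and bars at group means. Liver cisplatin library 3 is the highest point of the H2bc4 and H2bc8 panels, and the H2bc21 panel has its lowest liver points after cisplatin.

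Apart from H3c4, a chromosome 13 gene, the H2A and H3 calls fell on neighbouring genes whose reads could not be separated. H2ac18 (chr3:96245497-96246082, H2A) and H3c14 (chr3:96246685-96248509, H3) both lie on the plus strand and overlap the processed transcript Gm20634 (chr3:96245554-96248509) on the same strand. Of their 50-base windows, 89.4% and 100% also occur in Gm20634. H2ac18 held 0, 0 and 0 counts in the kidney CBLB502 libraries, 1071, 1087 and 579 after cisplatin and 3031, 840 and 4 after the combination. H3c14 held 459, 46 and 583 counts after CBLB502 and 2, 2 and 4 after cisplatin. Gm20634 held 1055, 1397 and 929 counts in those CBLB502 libraries. H2ac18 was called higher after cisplatin than after CBLB502, at least 872-fold against 3 counts over the CBLB502 group (adjusted p = 0.0261), and after the combination, at least 1215-fold (adjusted p = 0.0253), but these calls were lost under 5 and 4 of 18 alternatives, each leaving out 1 library. H3c14 was called lower, by 7.04 ± 1.22 (adjusted p = 0.00183) and 6.47 ± 1.18 (adjusted p = 0.00249).

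The 3 genes together gave 11.3, 11.6 and 11.9 CPM in the kidney CBLB502 libraries, although H3c14 alone ranged from 0.369 to 4.59 CPM among them. Their sum was 16.3, 17.6 and 20.4 CPM after cisplatin, 26.9, 27.9 and 11.6 after the combination and 17.2, 15.7 and 14.9 in controls. The sum was formed after the values were seen and is a description with no test. It is steadier between libraries than its parts in this CBLB502 group, and the size of the single-gene folds is therefore uncertain. The sum leaves out the antisense gene Gm20633, which overlaps H2ac18 on the opposite strand. Gm20633 held 329, 94 and 511 counts in the kidney CBLB502 libraries and was not steady among them. It held 1180, 1211 and 91 after cisplatin and 95, 30 and 1350 after the combination. Because the strand setting is not given, its part in the H2ac18 counts was not tested. Against control, H3c14 was called lower in kidney after cisplatin (-5.55 ± 1.18, adjusted p = 0.00325) and after the combination (-4.98 ± 1.13, adjusted p = 0.00499), and in liver after cisplatin (-4.17 ± 1.47, adjusted p = 0.0385), the last lost under 8 of 17 alternatives. H3c4 was also called lower in liver after cisplatin (-5.40 ± 1.99, adjusted p = 0.0457). Its counts were 0, 13 and 0 in controls, and without control library 2 the difference changed sign.

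**Figure D4:**
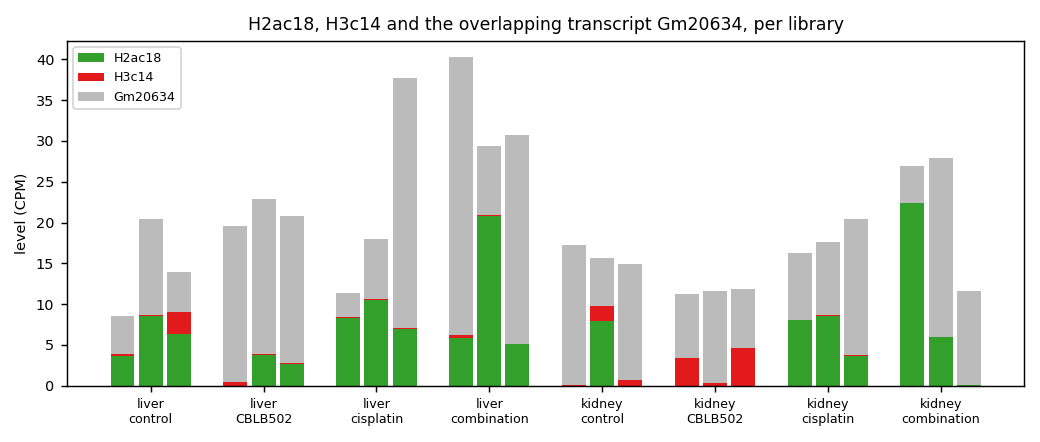
Stacked bars give the levels of H2ac18, H3c14 and the overlapping transcript Gm20634 in CPM (y axis, linear from 0) in each library by tissue and arm. The split among the 3 genes changes from library to library within groups, while the kidney CBLB502 bars reach 11.3, 11.6 and 11.9 CPM.

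H3c15, which passed the filter in both tissues, was at 0.0963, 0.0934 and 1.2 CPM in liver cisplatin libraries and 0.0977, 0 and 1.25 in kidney cisplatin libraries, so library 3 in liver and library 6 in kidney stood apart in it too. Its CBLB502 libraries held 0.929 to 1.69 CPM in liver and 1.0 to 1.2 in kidney. It was called in no comparison with all libraries. Of the 50-base windows of H3c15, 63.5% also occur in H3c14, so its reads, and the H3c15 calls below, carry the same uncertainty. Without kidney cisplatin library 6, 9 members were called between cisplatin and CBLB502 in kidney, with H3c6 and H4c6 added among the higher ones and H2bc21 and H3c15 among the lower. These were 9 of 30 members tested (30.0%), beside 46.9% of all genes called without that library. Against control the count went from 2 to 7, with H4c1 added as higher and H2bc21, H2bc6, H3c15 and H4c9 as lower, beside 51.7% of all genes. The combination against cisplatin in kidney then called 3 members, H2bc21, H3c15 and H4c9, all higher, beside 22.3% of all genes, where none was called with all libraries. The kidney interaction then called 3, H2bc21, H2bc6 and H4c9, all positive, beside 25.2%. CBLB502 against control called 4, all lower (28.7% of all genes), and the combination against CBLB502 5 higher and 1 lower (34.7%). Without liver cisplatin library 3, the combination differed from cisplatin in 6 members, with H2bc4, H2bc8, H2bc21 and H3c15 higher and H4c3 and H4c4 lower. These were 6 of 26 members tested (23.1%), beside 23.1% of all genes. Cisplatin against CBLB502 in liver then called 5, with H4c3 and Hist1h4n higher and H2bc4, H2bc8 and H3c15 lower (29.6% of all genes), and cisplatin against control 4, all lower (46.8%). CBLB502 and the combination against control called 3 each (34.8% and 46.8%), and the interaction 2, H2bc21 and H2bc4 (30.4%). After cisplatin, 5 members then differed between the tissues (34.0% of all genes).

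**Figure D5:**
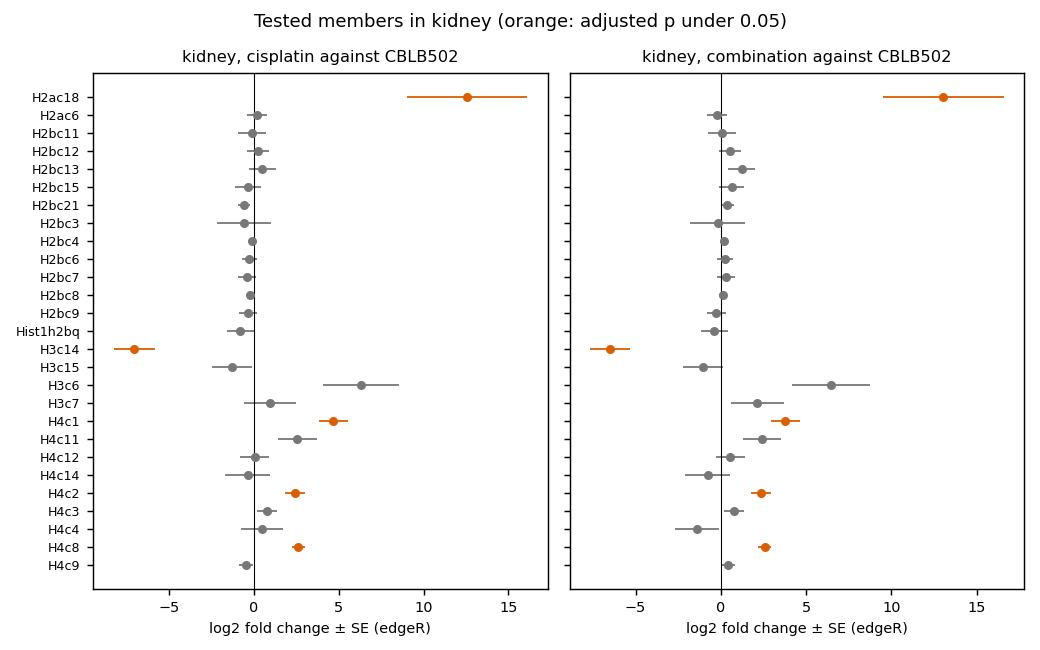
Points give the log2 fold change of each of the 27 tested members in kidney (x axis) with its SE from edgeR, for cisplatin (left) and the combination (right) against the same CBLB502 libraries, and orange marks an adjusted p under 0.05. H4c8, H4c1, H4c2 and H2ac18 are orange on the right of 0 and H3c14 on the left, and H2bc4 and H2bc8 lie near 0.

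After the combination, 5 of 33 tested members (15.2%) were called higher in kidney than in liver, beside 23.1% of all genes. All 5 were among the 11 tested H4 members. The control comparison called 0 of 33 tested members by edgeR, beside 33.9% of all genes (17.2% higher in kidney, 16.7% lower), with 2 at an unadjusted p under 0.05 and 2 called by DESeq2. After CBLB502, 2 members were called higher in kidney and 1 lower, beside 29.9% of all genes (16.6% and 13.3%). After cisplatin, 0 were higher and 1 lower, beside 34.9% (19.5% and 15.4%). After the combination 5 were higher and 0 lower, beside 40.2% (23.1% and 17.2%). The 5 were H4c1, H4c2, H4c3, H4c8 and H4c9. The other 6 tested H4 members did not pass, with log2 differences of 1.32 for H4c6, 0.44 for H4c11, 0.28 for H4c4, -0.28 for H4c12, -0.71 for H4c14 and -0.71 for Hist1h4n. H4c8 was 6.17-fold higher in kidney (2.62 ± 0.687, adjusted p = 0.00449) and H4c9 4.65-fold (2.21 ± 0.57, adjusted p = 0.00397), with H4c9 at 3.46, 2.01 and 1.57 CPM in kidney and 0.869, 0.365 and 0.282 in liver. These 2 calls held under all 28 alternatives. H4c1 (4.57 ± 1.49), H4c2 (2.70 ± 1.05) and H4c3 (2.69 ± 0.999) were lost under 2, 15 and 4 of them.

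After CBLB502, H4c3 was 10.0-fold higher in kidney than in liver (3.29 ± 1.06, adjusted p = 0.0227), H2ac18 was at least 278-fold lower in kidney (adjusted p = 0.0128; 0, 295 and 193 counts in liver and 0, 0 and 0 in kidney, groups that share a 0) and H3c14 higher (3.96 ± 1.24, adjusted p = 0.0194), the latter pair with the read sharing given above. After cisplatin, Hist1h4n was lower in kidney (-4.91 ± 1.47, adjusted p = 0.013). Its liver libraries held 3.24, 0.249 and 0.253 CPM against 0.0158 to 0.0526 in kidney, and the call was lost without liver cisplatin library 1 or kidney cisplatin library 5. Of the 50-base windows of Hist1h4n, 85.6% also occur in other annotated genes, so the split of its reads is uncertain. The difference between tissues in the effect of cisplatin against CBLB502 called 0 members by edgeR, beside 2.08% of all genes (1.25% higher, 0.834% lower), with 4 at an unadjusted p under 0.05 and 3 by DESeq2. For H4c8 that difference was 0.46 ± 0.929 (adjusted p = 0.939).

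Of histone genes outside the naming rule, the linker histone gene H1f2 was at 16.9 to 68.8 CPM in liver and 21.1 to 45.3 in kidney, and rose in kidney with the combination against control (0.66 ± 0.194, adjusted p = 0.019). H2aw fell in liver with cisplatin against control by 1.52 ± 0.46 (adjusted p = 0.0195), from 2.4, 7.02 and 3.19 CPM to 0.754, 1.59 and 2.04. H4f16 had 0 counts in all 3 kidney controls and was at least 6.28-fold higher after the combination, against 3 counts over the group (adjusted p = 0.00749). H2bu2 stayed under 1 CPM in every library.

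Replication-independent histones are made through the cell cycle and can replace core histones outside S phase. Of 11 tested, 6 rose and 1 fell in kidney after cisplatin against CBLB502, beside 18.5% of all genes called higher and 10.2% lower. The median log2 difference was 0.73 against -0.05 for all genes. H2aj rose by 1.97 ± 0.322 (adjusted p = 0.00135) and H3f3b by 1.37 ± 0.301 (adjusted p = 0.00646), and Cenpa, the centromeric H3, fell by 1.23 ± 0.39 (adjusted p = 0.0348). In liver after cisplatin against control, 6 rose and 1 fell, beside 25.6% and 17.5% of all genes, H2aj by 2.38 ± 0.304 (adjusted p = 0.000106) and H3f3b by 2.02 ± 0.552 (adjusted p = 0.0117) among those that rose. The list summed to 550 to 897 CPM in kidney after cisplatin and 378 to 419 after CBLB502.

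Of 30 genes of S phase and the cell cycle tested in kidney, 6 rose and 3 fell after cisplatin against CBLB502, where 18.5% of all genes rose and 10.2% fell. Mki67, a marker of dividing cells, fell by 3.13 ± 0.599 (adjusted p = 0.00306), the topoisomerase gene Top2a fell by 1.96 ± 0.646 (adjusted p = 0.0404), and Gins2, a part of the replicative helicase, rose by 1.99 ± 0.544 (adjusted p = 0.0186). In liver after the combination against control, 2 of 29 rose and 8 fell, beside 23.8% and 16.4% of all genes, with Mki67 down by 3.98 ± 0.76 (adjusted p = 0.00175).

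Of 12 genes for histone mRNA transcription and 3′ end processing, 2 rose and 0 fell in kidney after cisplatin against CBLB502, beside 28.7% of all genes called. They were the U7 snRNP proteins Lsm11 (1.38 ± 0.434, adjusted p = 0.0338) and Lsm10 (0.65 ± 0.213, adjusted p = 0.0389). After the combination against CBLB502, beside 23.8% of all genes, Lsm10 rose (0.98 ± 0.214, adjusted p = 0.00662) and Upf1, a helicase of RNA decay, fell by 0.41 ± 0.137 (adjusted p = 0.0475). In liver after cisplatin against control, 2 rose and 1 fell, beside 43.1% of all genes: Slbp rose by 1.02 ± 0.293 (adjusted p = 0.015), the cleavage factor Cpsf2 rose by 1.03 ± 0.203 (adjusted p = 0.00179) and Upf1 fell by 1.19 ± 0.195 (adjusted p = 0.000532). Of 11 histone chaperone genes, 4 rose and 1 fell in kidney after cisplatin against CBLB502, beside 28.7% of all genes, with Chaf1b, a subunit of the chromatin assembly factor, up by 1.66 ± 0.482 (adjusted p = 0.0241).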

How the data were processed

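Gene counts come from the authors' deposited table and are raw, per the file headers. Trimming used cutadapt 1.9, and FastQC is also named, per the submitters' processing notes. Aligner, counter, strand setting, build and annotation are not given in the sources used here. RNA was total RNA taken with Trizol, per the labels' protocols. Whether the libraries were then selected for RNA with a poly(A) tail is not given here. Levels of members without such a tail would depend on that step. Identifiers were looked up in GENCODE vM21 (GRCm38), which held 33156 of 33272 and all 55 members, and coordinates and transcripts come from it. The table's treated kidney columns bear numbers 4 to 6, absent from the labels, and were used as replicates of their group only. The FPKM columns were not used.

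Counts were tested with edgeR 4.0.16 in R 4.3.3 (filterByExpr, TMM scaling, quasi-likelihood test, Benjamini-Hochberg over all tested genes, threshold 0.05), with the 12 libraries of a tissue fitted together and all 24 for differences between tissues. Fold ratios are ratios of mean CPM on the 24-library scale, while log2 differences and SE come from the fits. The scripts were tested on simulated data, with settings changed after a first version recovered few of the changed genes. The changed version still missed some of them, so a gene that was not called may still have changed. Alternatives were RLE scaling, no filter, totals without mitochondrial counts, DESeq2 1.42.0, a replicate block in liver, leaving out each library and, chosen after seeing the data, the treated kidney libraries alone with and without a block by column number. Levels per length are CPM per kilobase of the longest annotated transcript.

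The members, gene lists and motifs were chosen with earlier results of these data known. Genes were named by rule: called members whose groups do not overlap, up to 5 in each direction; the 5 members with the highest level per length in each tissue; fixed histone genes; and up to 3 called genes per list. H3c4, H3c15, the summed locus and the members called without single libraries were named after their values were seen.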

Additional observations from a re-analysis of the deposited data

Results flagged for a closer look

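H2bc21 in liver differed between mice given CBLB502 and mice not given it in its change with cisplatin: the log2 interaction was 2.38 ± 0.706 (edgeR, adjusted p = 0.0321). Cisplatin against control was -1.92 and the combination against CBLB502 0.46. The interaction was positive under all 17 alternatives, from 1.92 to 2.64, and its adjusted p ranged from 0.00173 to 0.103. H2bc21 rests on 24 to 324 counts in a liver library.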

How the results depend on the processing

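Of 32 calls of single members, 13 held under every alternative, 19 were lost under at least 1, and 1 reversed: H3c4 in liver, cisplatin against control, at 2.52 without control library 2, the library with its 13 control counts (other single libraries left out gave values down to -5.96). RLE scaling moved the median of all tested genes by -0.25 for CBLB502, -0.23 for cisplatin and -0.30 for the combination against control in liver, and by -0.12 and -0.14 for cisplatin and the combination in kidney; no member changed sign of a call.

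With DESeq2 the members called were 2 for CBLB502 against control, 5 for cisplatin against control, 6 for the combination against control, 5 for the combination against cisplatin, 2 for cisplatin against CBLB502 and 2 for the interaction in liver; 5, 5 and 1 for CBLB502 against control, cisplatin against control and the interaction in kidney; 2, 5 and 5 between tissues in controls, after CBLB502 and after cisplatin; and 3 for the tissue difference. RLE gave 2 for the combination against control in liver, 1 for it in kidney and 2 between tissues after cisplatin. Over all genes, RLE called 3109 higher and 3703 lower, 3634 and 3669, and 4352 and 3128 in these comparisons. With no filter, liver gave 1 for cisplatin against control, 2 for the combination against control and 0 for the interaction, and the tissues 2 after cisplatin. Without mitochondrial counts, liver gave 2 for the combination against control, and the tissues 1 in controls and 3 after cisplatin. Over all genes, 3944 were then called higher and 3176 lower, 4344 and 3008, and 4522 and 2961 in these comparisons. For DESeq2, no filter and the replicate block, the share of all genes called is not given here. Those member counts therefore cannot be set against it. The causes were not tested.

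With the replicate block, liver gave 1 for cisplatin against control, 0 for cisplatin against CBLB502 and 0 for the interaction. Same-numbered liver libraries did not clearly deviate together (5 of 18 pairs over r = 0.1, range -0.17 to 0.18). Differently numbered pairs reached from -0.19 to 0.19. The check thus gave no sign of pairing among liver libraries, but with 3 libraries a group it cannot exclude it. Pairing of liver and kidney libraries from the same mouse was not checked. The fit of both tissues treated all 24 libraries as independent. The treated kidney columns carry numbers that the labels do not give, and 0 of their 9 same-numbered pairs lay over r = 0.1 (range -0.13 to 0.07). A replicate block by these numbers in the 9 treated kidney libraries, chosen after seeing the data, called 5, 5 and 0 members for cisplatin against CBLB502, the combination against CBLB502 and the combination against cisplatin, as did those libraries alone without the block.

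Leaving out each library gave these ranges of members called. In liver they were 0 to 3 for CBLB502 against control, 1 to 4 for cisplatin against control, 0 to 3 for the combination against control, 0 to 6 for the combination against cisplatin, 0 to 5 for cisplatin against CBLB502, 0 to 0 for the combination against CBLB502 and 0 to 2 for the interaction. In kidney they were 0 to 4, 1 to 7 and 1 to 5 against control for CBLB502, cisplatin and the combination, 0 to 3 for the combination against cisplatin, 4 to 9 and 3 to 6 against CBLB502 for cisplatin and the combination, and 0 to 3 for the interaction. Between tissues they were 0 to 2 in controls, 1 to 4 after CBLB502, 0 to 5 after cisplatin, 2 to 5 after the combination and 0 to 2 for the tissue difference. Liver cisplatin library 3 or kidney cisplatin library 6 gave the highest count in most of these. For the combination against cisplatin, the share of all genes called rose as well. It went from 3.57% to 23.1% without that liver library and from 0.00492% to 22.3% without that kidney library. For the other single libraries left out, the share of all genes is not given here.

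Mean summed levels without mitochondrial counts in the totals were 143, 155.6, 133.1 and 177 CPM in liver control, CBLB502, cisplatin and combination, and 185.8, 179, 173.4 and 217.6 in kidney. Without H2bc4 they were 28.64, 18.27, 26.44 and 26.04, and 25.59, 21.67, 28.71 and 35.88. RLE scaling gave 87.5 in liver and 105.8 in kidney controls. Control libraries held 499 to 3685 member counts, which limits comparisons with them.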
